A study of Mus musculus with 69 samples.

Results

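The genes described here are 33 genes of the macrophage lysosome and of lipid handling, measured in mouse lung after titanium dioxide nanoparticles were instilled into the trachea. A gene was a member when the transcript accession of at least 1 array probe matched its symbol, and its value was the median over its probes. By this rule 32 of the 33 genes were measured, out of 17639 genes tested in all, and no probe was matched to Fabp5. Across the members 43 probes were kept, and all 43 were well above background on all 69 arrays. The list was drawn up with earlier results of these data known, so counts of members set beside all genes are descriptions and not independent support.

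The lungs came from female C57BL/6 mice that were 5 to 7 weeks old on arrival and were acclimatised for 1 to 3 weeks. Each mouse received a single dose of 18, 54 or 162 µg of NRCWE-001, the unmodified particle, or of NRCWE-002, which carries a positive surface charge, and lungs were taken on day 1 or day 28. Particles were dispersed in water with 2% serum, and vehicle mice were given that liquid alone, so all groups share the instillation. Each of the 12 exposed groups held 5 mice, and the vehicle groups held 5 mice on day 1 and 4 on day 28. Each mouse had 1 array, on which its lung RNA (Cy5) was read against a commercial mouse reference RNA (Cy3) without a dye swap. Values are therefore log2 ratios of lung to reference RNA. They can be compared between mice for 1 gene, but not between genes. Mice are named by a replicate number that only identifies a sample within its group.

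Macrophages take up inhaled particles and deliver them to lysosomes, the acidic compartments in which cathepsins cut proteins and glycosidases trim sugars. The vacuolar proton pump keeps the compartment acidic, Lipa, Npc1 and Npc2 release cholesterol from it, and Apoe and Lpl handle lipid outside it. Gpnmb, Trem2, Spp1 and Lgals3 are surface or secreted proteins that macrophages often make when they are loaded with lipid or debris. The transcription factor TFEB is known to act on many lysosomal genes through a short promoter motif called CLEAR.

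Promoter stretches are printed for the 4 members that passed the dose test of NRCWE-001 on day 28 in the main fit. Stretches of 3 of the 4 members that carry the CLEAR motif are also printed, and none of these passed it. Ctsd, 1 of these 3, passed the limma F-test when slide was a fixed block (adjusted p = 0.0437). The first 4 are the 150 bases before the annotated gene start, and the other 3 are 60 bases around the motif. They were copied from RefSeq promoter windows that run from 250 bases before to 50 bases after a gene start. Capitals mark CACGTG, the E-box, and TCACGTGA, the CLEAR core that contains it, and both letter strings read the same on either strand.
Gpnmb (GRCm38.p6, chr6:49036368-49036517, strand plus): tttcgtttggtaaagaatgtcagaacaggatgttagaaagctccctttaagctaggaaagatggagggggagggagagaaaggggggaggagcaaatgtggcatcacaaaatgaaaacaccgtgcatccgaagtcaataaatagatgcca
Trem2 (GRCm38.p6, chr17:48346251-48346400, strand plus): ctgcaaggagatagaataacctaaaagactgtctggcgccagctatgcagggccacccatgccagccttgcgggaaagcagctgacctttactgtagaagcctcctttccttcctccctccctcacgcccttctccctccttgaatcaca
Spp1 (GRCm38.p6, chr5:104434961-104435110, strand plus): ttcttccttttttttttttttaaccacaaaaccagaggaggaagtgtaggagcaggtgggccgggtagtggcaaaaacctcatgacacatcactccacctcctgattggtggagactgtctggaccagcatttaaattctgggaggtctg
Ctss (GRCm38.p6, chr3:95526636-95526785, strand plus): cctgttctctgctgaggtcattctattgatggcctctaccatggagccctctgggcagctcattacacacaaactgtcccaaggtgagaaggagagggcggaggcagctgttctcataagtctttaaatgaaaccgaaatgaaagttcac
Ctsd (GRCm38.p6, chr7:142387893-142387952, strand minus): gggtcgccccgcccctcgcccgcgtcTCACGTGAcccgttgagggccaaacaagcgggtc
Mcoln1 (GRCm38.p6, chr8:3500447-3500506, strand plus): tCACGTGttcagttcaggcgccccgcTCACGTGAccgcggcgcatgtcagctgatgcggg
Atp6v1a (GRCm38.p6, chr16:44139358-44139417, strand minus): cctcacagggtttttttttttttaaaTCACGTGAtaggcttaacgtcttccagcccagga

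A promoter window was found for 26 of the 33 members. TCACGTGA was in the windows of 4 of the 26 (15.4%), namely Ctsa, Ctsd, Atp6v1a and Mcoln1, against 1.12% of the 27025 genes with a window. CACGTG was in 7 of the 26 (26.9%), the same 4 with Ctsl, Lamp1 and Glb1, against 8.09% of all genes. Neither was in the windows of Gpnmb, Trem2, Spp1, Ctss or Cd63. Spp1 has a second annotated start in the table, whose window held neither motif. A match describes these letters and this window only.

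Before groups were compared, the arrays were compared with each other. The median correlation of an array with all others was 0.852, 0.866 and 0.896 for the 3 arrays of slide 4, which held replicate 2 of NRCWE-002 at 162, 18 and 54 µg on day 28, and 0.869 for replicate 2 of NRCWE-001 at 18 µg on day 1. It was 0.921 to 0.974 for the remaining arrays. The consensus correlation of arrays on the same slide, over 18 slides, was 0.47. For the named members of day 28, values without the slide 4 array are given where they moved by over 1.5 times.

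On day 28, Spp1, Gpnmb and Trem2 of the phagocyte surface and secreted group stood highest among the members at 162 µg. Lgals3 and Itgax of the same group changed less. Spp1 (osteopontin, a secreted matrix protein), Gpnmb (a membrane glycoprotein of loaded macrophages), Trem2 (a lipid-sensing receptor) and Ctss (cathepsin S, a protease of antigen-presenting cells) changed with the dose of NRCWE-001. They passed the limma F-test over the 3 doses at adjusted p-values of 0.0122, 0.0288, 0.0164 and 0.0124. These 4 of 32 members (12.5%) compare with 0.476% of all genes called in that test. The high values of these 4 genes came from 3 of the 5 mice.

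The vehicle mice of day 28 had Gpnmb log2 ratios of -4.06, -3.07, -3.91 and -4.01. At 162 µg NRCWE-001 the 5 mice had -0.23, -3.68, -4.12, -0.34 and -0.56, and at 162 µg NRCWE-002 they had -3.91, 0.38, -3.64, -1.93 and -1.93. Replicates 1, 4 and 5 of NRCWE-001 and replicates 2, 4 and 5 of NRCWE-002 lay above every vehicle mouse, and the other 4 mice lay within or just below the vehicle range. The mean difference from the vehicle was 1.98 ± 0.51 (SE; n = 5 and 4) with NRCWE-001 and 1.55 ± 0.51 with NRCWE-002. These SEs rest on a spread pooled over all 14 groups. The SDs of these mice were larger, at 1.94 with NRCWE-001 and 1.72 with NRCWE-002, beside 0.47 in the vehicle. Without the slide 4 array (replicate 2) the NRCWE-002 difference was 0.91. Neither single-dose contrast passed limma's test after adjustment (adjusted p = 0.125 and 0.492). The second Gpnmb probe was well above background on 1 array and was left out. With it averaged in, the difference for NRCWE-001 was 1.05 and the dose effect was still called (adjusted p = 0.0421). With median centring of the arrays in place of loess the difference was 2.14 and the dose effect was not called (adjusted p = 0.0606).

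Trem2 was high in the same mice. Its vehicle ratios on day 28 were -2.16, -2.13, -2.19 and -2.09. They were 0.10, -1.83, -2.21, 0.57 and 0.38 at 162 µg NRCWE-001 and -2.33, 0.99, -2.07, -0.51 and -0.44 at 162 µg NRCWE-002. In each group 4 of 5 mice exceeded every vehicle mouse, 3 of them by more than 1. The differences were 1.54 ± 0.37 (SE) and 1.27 ± 0.37 (adjusted p = 0.114 and 0.376), and the second was 0.80 without the slide 4 array. The 2 Trem2 probes differed little, at 1.71 and 1.38 for NRCWE-001.

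Spp1 was the member with the largest mean difference at 162 µg on both days. On day 28 the vehicle ratios were -5.15, -4.85, -5.25 and -5.20. The mice given 162 µg NRCWE-001 had -2.24, -5.26, -4.39, -1.40 and -1.63, and those given NRCWE-002 had -4.12, -2.66, -4.07, -2.47 and -2.62. All 5 NRCWE-002 mice lay above all 4 vehicle mice, and Spp1 was the 1 member of 32 for which that held, against 0.414% of all genes. For NRCWE-001, 4 of 5 mice lay above the vehicle, and 0 members separated fully, against 0.709% of genes. The differences were 2.13 ± 0.47 (SE; adjusted p = 0.0577) and 1.93 ± 0.47 (adjusted p = 0.133).

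Ctss ratios in the vehicle mice of day 28 were 1.70, 1.87, 1.88 and 1.80. They were 3.71, 1.79, 1.76, 4.19 and 3.61 at 162 µg NRCWE-001 and 1.74, 3.41, 1.68, 2.51 and 2.99 at 162 µg NRCWE-002. Again 3 of 5 mice per particle were above the vehicle and 2 were not. The differences were 1.20 ± 0.32 (SE; adjusted p = 0.140) and 0.65 ± 0.32 (adjusted p = 0.725). The second was 0.42 without the slide 4 array.

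**Figure D1:**
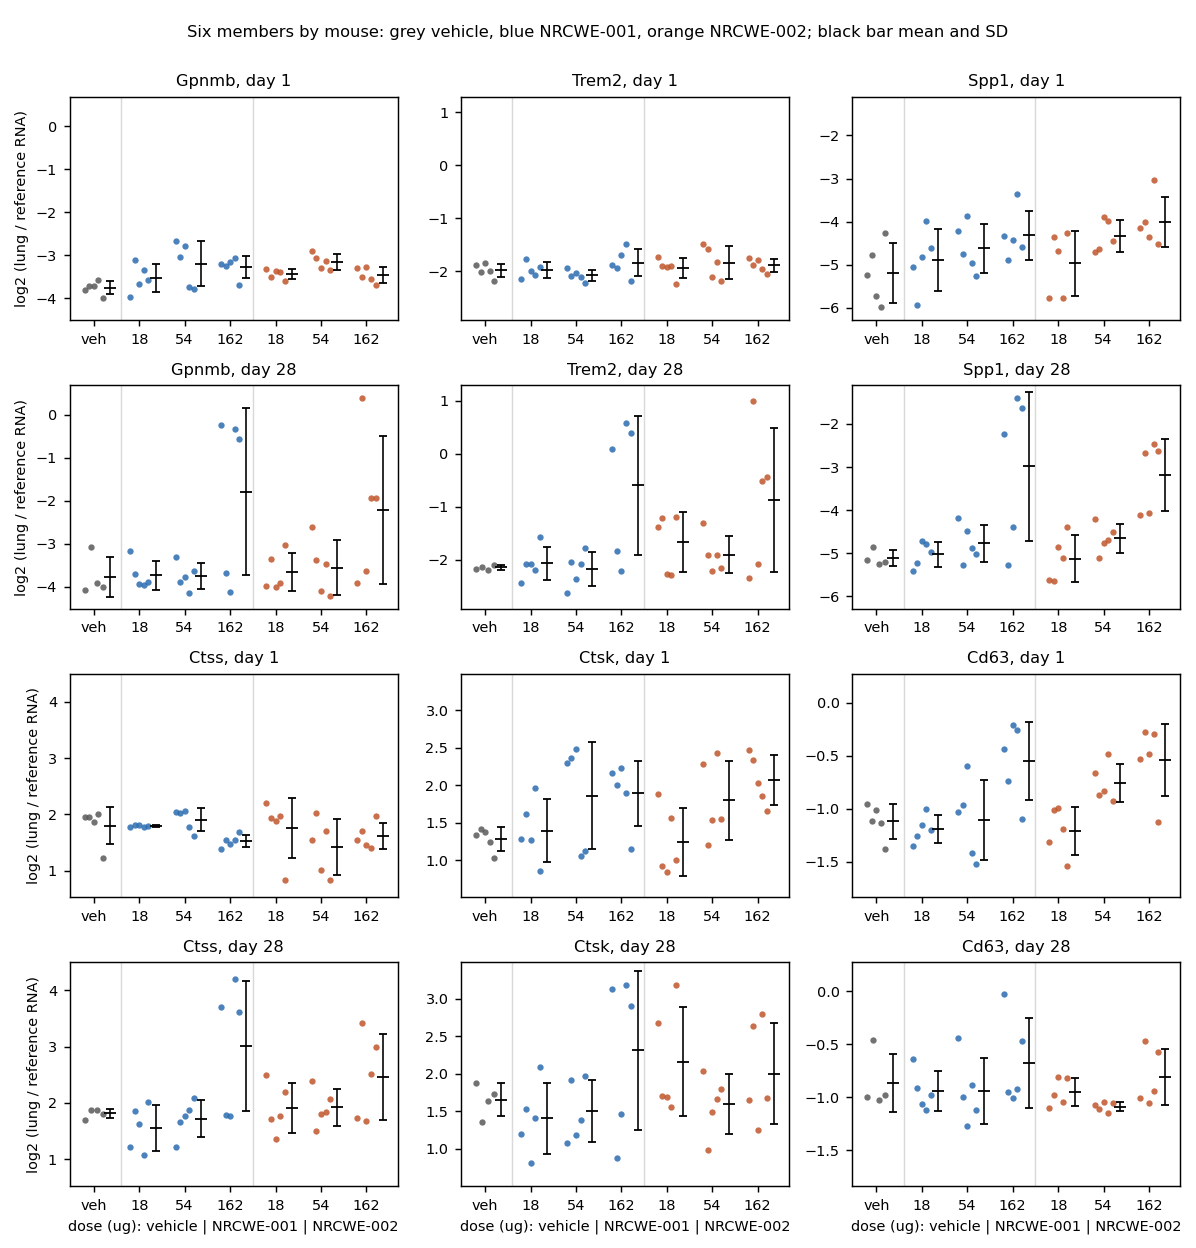
Log2 ratio of lung to reference RNA of 6 members in each mouse, by dose in µg, on day 1 and day 28. Points are mice (grey vehicle, blue NRCWE-001, orange NRCWE-002), and black bars are the group mean and SD. On day 28 the 162 µg groups of Gpnmb, Trem2 and Ctss split into high mice and mice near the vehicle.

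The lower doses on day 28 stayed closer to the vehicle. Group means of Gpnmb at 18 and 54 µg ran from -3.75 to -3.55 against -3.76 in the vehicle, and those of Spp1 from -5.12 to -4.66 against -5.12. Trem2 averaged -1.66 at 18 µg NRCWE-002, where replicates 1, 2 and 5 had -1.37, -1.21 and -1.19 and the other mice -2.26 and -2.28. No member was called at 18 or 54 µg on day 28, where the share of all genes called was 0.193% for 18 µg NRCWE-001 and 0% for the other 3 comparisons. On day 1 the count was also 0 members, against 0.0624% of genes for 54 µg NRCWE-002 and 0% for the others. In these 8 limma comparisons 0 to 2 members had an unadjusted p below 0.05, beside 512 to 1440 of all 17639 genes.

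With single-dose contrasts at 162 µg on day 28, 0 of 32 members passed, where 0.0454% of all genes passed for NRCWE-001 and 0.00567% for NRCWE-002. At an unadjusted limma p below 0.05 the counts were 7 and 4 members, beside 1522 and 1184 of all 17639 genes. For NRCWE-001 the adjusted count was 11 with limma's array weights, and it was 4 when replicate 2 and 5 when replicate 3 was left out. With NRCWE-002, leaving out replicate 1 or replicate 3 gave 2. Shares of all genes under these alternative settings are not given here. The direction was broad for NRCWE-001, with 29 of 32 members higher than the vehicle and a median change of 0.26, beside a median of -0.01 over all genes. For NRCWE-002, 26 of 32 were higher, with a median of 0.12 beside -0.01. That median rested on 1 mouse and on the scaling: it was -0.04 without replicate 2, the array on slide 4, and -0.05 when arrays were centred on their median in place of loess. For NRCWE-001 it was 0.15 without replicate 1 and 0.42 with median centring. The limma dose test for NRCWE-002 called 0 members and 0% of all genes, and 3 members had an unadjusted p below 0.05.

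The 9 cathepsins were all higher at 162 µg NRCWE-001 on day 28, with a median change of 0.40. After Ctss came Ctsd (0.72 ± 0.38 SE), an aspartic protease, Ctsk (0.66 ± 0.36), a collagen-degrading protease, and Ctsc (0.45 ± 0.27), which activates granule proteases. Ctsl was the lowest, at 0.02. For NRCWE-002, 7 of 9 were higher with a median of 0.26, and Ctsd differed by 0.47 ± 0.38. Ctsk ratios were 1.88, 1.36, 1.64 and 1.74 in the vehicle, 3.14, 0.88, 1.47, 3.18 and 2.90 at 162 µg NRCWE-001 and 1.66, 2.64, 1.25, 2.80 and 1.67 at 162 µg NRCWE-002. The exposed mice thus lay both above and below the vehicle range, and the Ctsk differences of 0.66 and 0.35 did not pass (adjusted p = 0.626 and 0.899). They were 0.36 and 0.09 without the arrays of slides 4 and 6. Without 1 array, the first was 1.02 without replicate 2, and the second was 0.19, 0.54 and 0.15 without replicates 2, 3 and 4.

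Ctsd was also high in other mice whose arrays were on slides 4 and 6. Its ratio was 3.09 in replicate 2 of 162 µg NRCWE-002, but 1.70 and 1.09 in the 18 and 54 µg mice on the same slide 4. On slide 6 it was 2.23 in replicate 1 of 162 µg NRCWE-001, 0.88 in the vehicle mouse, 0.79 at 54 µg and 0.65 at 18 µg. The other day 28 vehicle mice lay between -0.17 and 0.03, and the part of the slide in these values was not tested. The 2 Ctsb probes did not move alike, with changes of 0.64 and 0.03 for NRCWE-001.

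The glycosidases were higher in 5 of 5 members for both particles, with median changes of 0.26 and 0.03, and Neu1 (a sialidase) had the largest mean at NRCWE-001, 0.32 ± 0.13. The sterol and lipid turnover genes had medians of 0.16 and 0.08, and Apoe differed by 0.27 ± 0.19 for both particles. Lgals3 (galectin-3) differed by 0.41 ± 0.22 and 0.22 ± 0.22, and Itgax (CD11c) by 0.38 ± 0.23 and 0.12 ± 0.23. The acidification, channel and regulator genes differed by -0.13 to 0.26 over both particles. Tfeb itself differed by 0.08 ± 0.11 and 0.04 ± 0.11. Of the lysosomal membrane genes, Lamp2 differed by 0.17 ± 0.13 and 0.12 ± 0.13 and Lamp1 by -0.04 ± 0.10 and -0.04 ± 0.10. None of the differences in this paragraph passed the adjusted test.

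**Figure D2:**
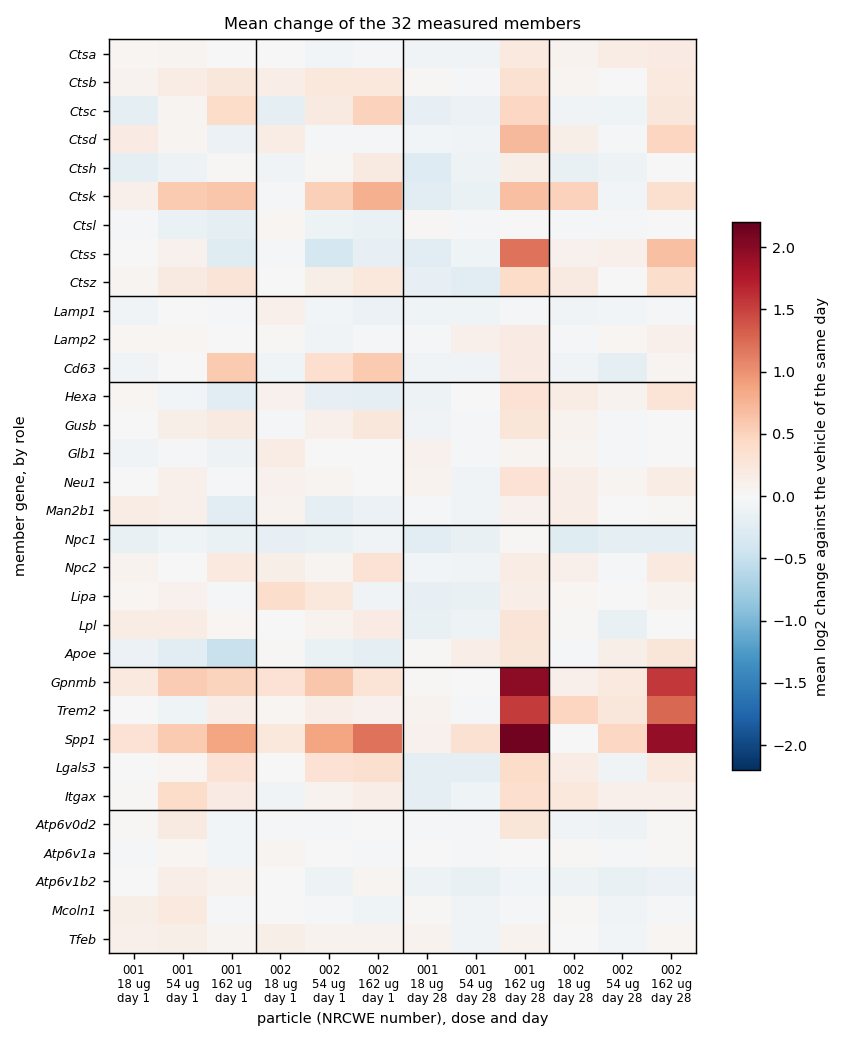
Mean log2 change of the 32 measured members (rows, grouped by role) against the vehicle of the same day, for each particle, dose in µg and day (columns). The strongest column is 162 µg on day 28, where Spp1, Gpnmb and Trem2 lie between 1.27 and 2.13 for both particles.

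The number of members above every vehicle mouse differed from mouse to mouse within the 162 µg groups of day 28. In NRCWE-001 mice 1 to 5 it was 28, 4, 1, 19 and 18 of 32, and in NRCWE-002 mice it was 3, 24, 3, 9 and 7. Members below every vehicle mouse numbered 0, 12, 17, 0 and 1 for NRCWE-001 and 6, 4, 17, 6 and 4 for NRCWE-002. The same mice that were high for Gpnmb thus had the most members above the vehicle. The same counts over all genes are not given here. The member counts therefore describe these mice and are not a result about the members in particular. The labels hold nothing that separates these mice within a group.

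**Figure D3:**
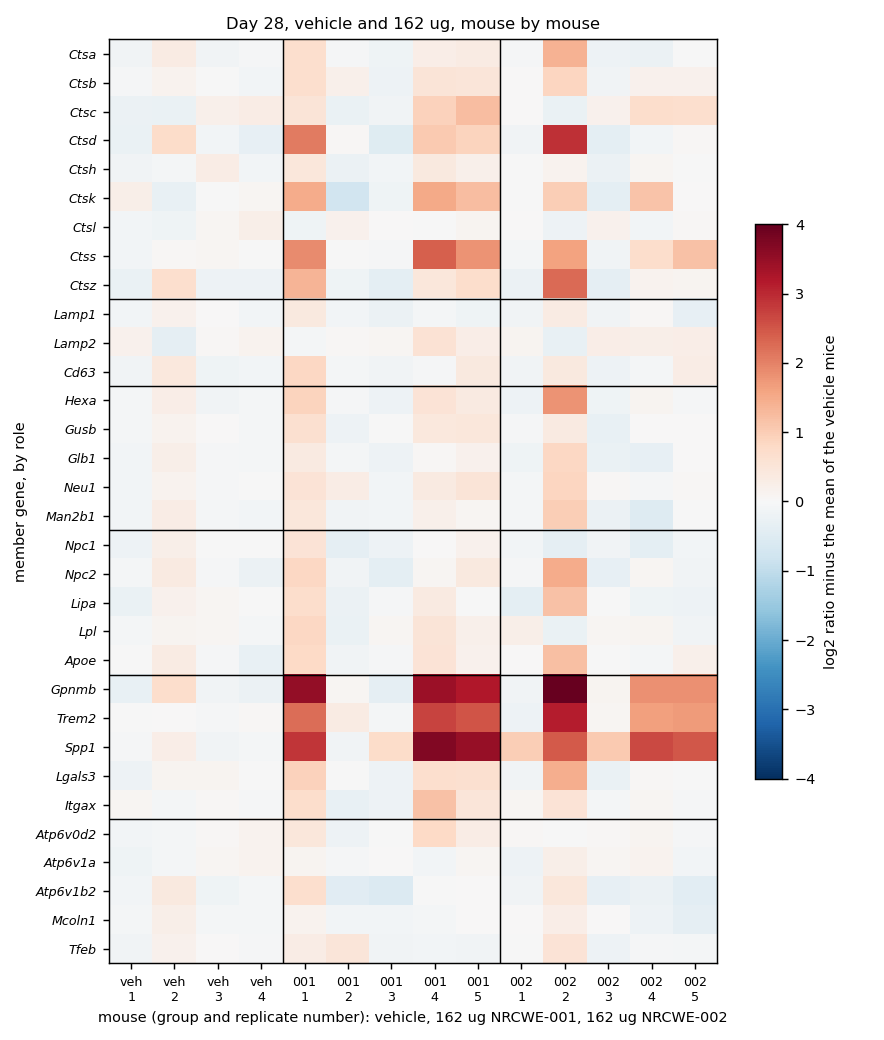
Log2 ratio of each member minus the mean of the 4 vehicle mice, on day 28, for the vehicle mice (veh) and the mice given 162 µg of NRCWE-001 (001) or NRCWE-002 (002), numbered by replicate. Gpnmb, Trem2 and Spp1 are high in replicates 1, 4 and 5 of NRCWE-001 and 2, 4 and 5 of NRCWE-002.

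The score of a mouse, its mean log2 ratio over the 32 members, is given with no test. In the vehicle mice of day 28 it was 0.19, 0.45, 0.27 and 0.24. At 162 µg it was 1.18, 0.20, 0.16, 1.01 and 0.93 for NRCWE-001 and 0.25, 1.27, 0.21, 0.52 and 0.51 for NRCWE-002. The group means ± SD were 0.29 ± 0.12 for the vehicle, 0.70 ± 0.48 and 0.55 ± 0.43. The difference from the vehicle was 0.26 for NRCWE-002 and 0.08 without replicate 2, and 0.41 for NRCWE-001 and 0.29 without replicate 1. At 18 and 54 µg of either particle they were 0.22 to 0.35. On day 1 the groups lay closer, at 0.20 ± 0.08 for the vehicle, 0.28 ± 0.04 for 162 µg NRCWE-001 and 0.33 ± 0.05 for 162 µg NRCWE-002.

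**Figure D4:**
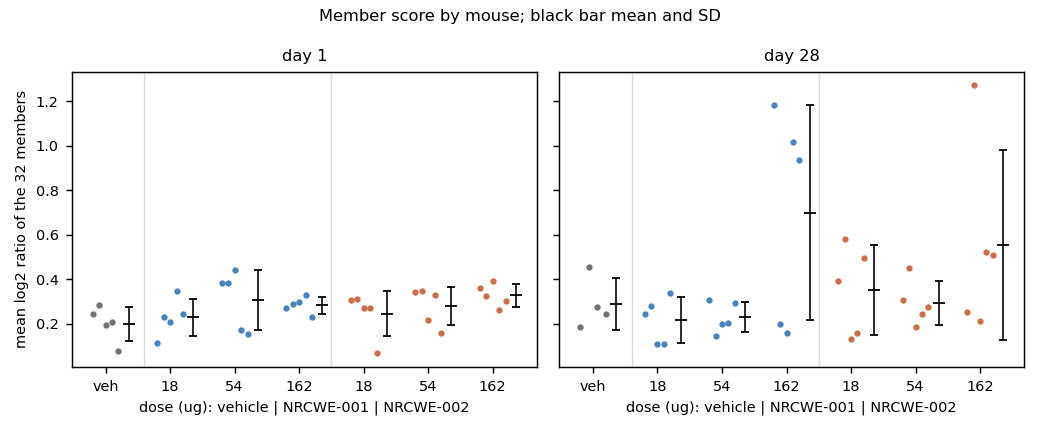
Mean log2 ratio of the 32 members in each mouse, by group, on day 1 (left) and day 28 (right), with the dose in µg on the horizontal axis; black bars are the mean and SD. On day 28 the highest mice are at 162 µg, from 0.93 to 1.27, while the vehicle mice lie between 0.19 and 0.45.

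The same mice were high when compared within slides. Each 162 µg array of day 28 was set against the mean of the vehicle or lower-dose arrays of day 28 on its own slide. For Gpnmb the differences in NRCWE-001 mice 1 to 5 were 2.95, 0.26, 0.06, 3.29 and 3.33, and in NRCWE-002 mice they were -0.36, 3.73, 0.40, 1.98 and 2.25. For Spp1 they were 2.57, -0.54, 0.31, 3.61 and 3.35, and 0.88, 2.72, 0.87, 2.64 and 2.08. Each such difference rests on 1 to 3 comparison arrays. A vehicle array of day 28 shared a slide with 1 of the NRCWE-001 mice (replicate 1, Gpnmb difference 2.84) and with 2 of the NRCWE-002 mice (replicates 1 and 3, 0.15 and 0.37).

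**Figure D5:**
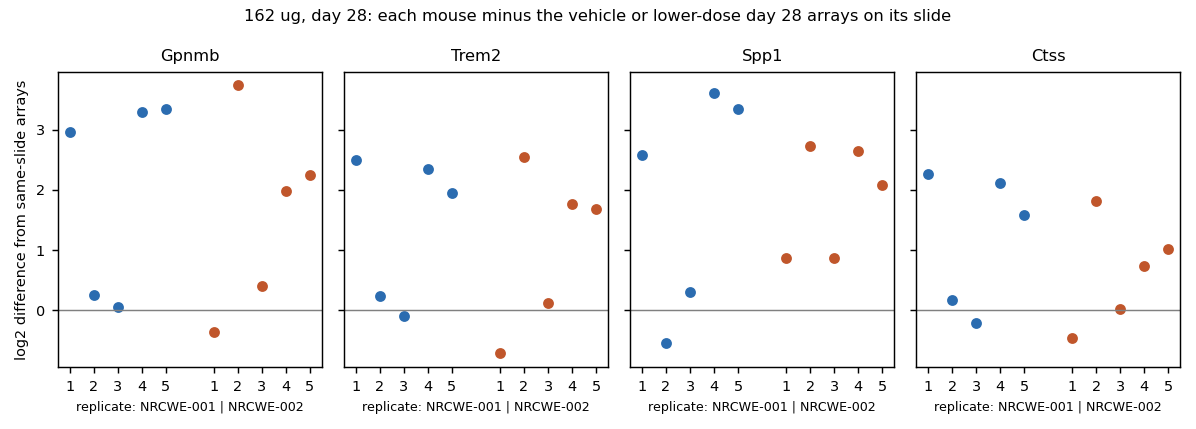
Log2 difference between each 162 µg mouse of day 28 (horizontal axis, replicate number, blue NRCWE-001 and orange NRCWE-002) and the mean of the vehicle or lower-dose day 28 arrays on its slide, for Gpnmb, Trem2, Spp1 and Ctss; the grey line is 0. The Gpnmb differences run from -0.36 to 3.73.

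The day 28 calls rested on few mice. Leaving out replicate 1, 4 or 5 of 162 µg NRCWE-001 left 0 members called by the dose test, with adjusted p-values for the 4 genes from 0.0859 to 0.329. Without the arrays of slides 4 and 6, among them replicate 1 and vehicle replicate 2, it was 0 (0.0579 to 0.137). Without slide 4 alone it was 6, with Ctsb and Neu1 added. The share of all genes called in that fit is not given here, so the 6 are a description. With only the arrays of day 28 in the fit the same mice gave the same differences, and 0 members were called (adjusted p of the 4 genes = 0.178 to 0.613). With slide as a fixed block the dose test of NRCWE-001 called 7 of 32 members (21.9%), the same 4 with Ctsd, Lipa and Lgals3, against 1.98% of all genes, and that of NRCWE-002 called 0, against 0.0113%. In the same fit the 162 µg limma contrasts of day 28 called 0 members, where 0% and 0.00567% of all genes passed.

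Several marker lists of other cell types also differed between these mice. The mean log2 ratio of 7 of 7 interstitial macrophage markers (among them C1qa, C1qb and C1qc, complement subunits) was 0.87 to 1.25 in the vehicle mice of day 28. It was 1.56, 0.84, 1.16, 2.40 and 2.15 in the NRCWE-001 mice and 1.13, 2.03, 1.101, 2.08 and 2.00 in the NRCWE-002 mice at 162 µg. The mice that were high for Gpnmb were those above the vehicle range in these markers. For 8 of 9 alveolar macrophage markers the vehicle range was 3.04 to 3.53 and the exposed ranges were 2.64 to 3.58 and 2.69 to 3.72. Cardiac muscle markers (4 of 4) were 0.81 to 3.20 in the vehicle, 0.24 to 3.29 with NRCWE-001 and 2.53 to 4.01 with NRCWE-002. Adipocyte markers (3 of 3) averaged 1.48, 0.98 and 2.72 in the same order, and endothelial markers (4 of 4) averaged 4.60, 4.15 and 4.39. In whole lung, more cells of a type and more RNA per cell cannot be told apart, and the part of these markers in the result was not tested.

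On day 1, Cd63, a tetraspanin of lysosome and exosome membranes, was the 1 member of 32 (3.12%) that passed a dose test, for NRCWE-002 at an adjusted p of 0.0498, where 0.822% of all genes passed. For NRCWE-001, 0 members passed the limma test (2 at an unadjusted p below 0.05), against 0.697% of genes, and Cd63 had an adjusted p of 0.0757. The vehicle ratios of Cd63 on day 1 were -0.95, -1.12, -1.01, -1.14 and -1.38. They were -0.44, -0.74, -0.21, -0.26 and -1.09 at 162 µg NRCWE-001 and -0.53, -0.28, -0.49, -0.30 and -1.12 at 162 µg NRCWE-002. In both groups 4 of 5 mice lay above every vehicle mouse and replicate 5 lay within the vehicle range.

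The Cd63 differences at 162 µg were 0.57 ± 0.17 (SE; adjusted p = 0.114) and 0.58 ± 0.17 (adjusted p = 0.0949). With slide as a fixed block they were 0.54 and 0.61 and were called (adjusted p = 0.0216 and 0.0419), the 1 member called in each, against 4.37% and 1.96% of all genes. The dose test for NRCWE-002 is at the limit: the call was lost when any 1 of 18 of the 20 arrays was left out, with adjusted p-values from 0.0063 to 0.199. Against vehicle arrays on the same slide, Cd63 was higher by 0.52, 0.38 and 0.80 in the 3 NRCWE-001 mice and by 0.61 and 0.89 in the 2 NRCWE-002 mice that had one. By day 28 the Cd63 differences were 0.19 ± 0.18 and 0.05 ± 0.18.

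Spp1 and Ctsk had the largest mean differences on day 1 at 162 µg without passing the test. Spp1 vehicle ratios were -5.25, -4.77, -5.72, -5.99 and -4.27. They were -4.33, -4.89, -4.43, -3.37 and -4.59 at 162 µg NRCWE-001 and -4.15, -4.002, -4.35, -3.04 and -4.51 at NRCWE-002. Vehicle and exposed mice overlapped, and the differences were 0.88 ± 0.44 (SE; adjusted p = 0.713) and 1.19 ± 0.44 (adjusted p = 0.283).

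Ctsk ratios on day 1 were 1.34, 1.42, 1.39, 1.24 and 1.03 in the vehicle. They were 2.17, 2.01, 2.24, 1.90 and 1.16 at 162 µg NRCWE-001 and 2.47, 2.33, 2.03, 1.85 and 1.66 at NRCWE-002. All 5 NRCWE-002 mice lay above all 5 vehicle mice, as for Ctsb and Lgals3. These 3 of 32 members (9.38%) compare with 3.54% of all genes, and for NRCWE-001 the count was 0 members against 1.98%. The Ctsk differences were 0.61 ± 0.34 (SE; adjusted p = 0.806) and 0.79 ± 0.34 (adjusted p = 0.432).

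In the single-dose contrasts of day 1, 0 members were called at 162 µg, where 0.578% of all genes were called for NRCWE-001 and 0.595% for NRCWE-002. At an unadjusted limma p below 0.05 there were 4 and 5 members, beside 1248 and 1576 of all 17639 genes. Both medians of the members were near those of all genes, at 0.02 and 0.04 against 0.01 and 0.01, with 18 of 32 members higher for each particle. With median centring in place of loess they were 0.16 and 0.14 against 0.05 and 0.04. Apoe, the main lipid carrier of macrophages, had the lowest value, at -0.49 ± 0.18 (SE; adjusted p = 0.349) with NRCWE-001, against -0.22 ± 0.18 (adjusted p = 0.833) with NRCWE-002. Gpnmb and Trem2, the leading genes of day 28, had differences of 0.48 ± 0.48 and 0.15 ± 0.35 for NRCWE-001 and 0.30 ± 0.48 and 0.10 ± 0.35 for NRCWE-002. When slide was fitted as a fixed block, the day 1 dose tests called 3 members (9.38%; Cd63, Man2b1 and Mcoln1) for NRCWE-001, against 7.42% of all genes, and 2 (6.25%; Cd63 and Lipa) for NRCWE-002, against 2.36%.

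Marker lists of neutrophils, monocytes and interstitial macrophages averaged higher at 162 µg of both particles on day 1, and those of other leukocytes did not. The mean of 10 of 10 neutrophil markers was 1.24 to 1.76 in the vehicle mice, 2.59, 1.71, 2.07, 2.45 and 1.37 at 162 µg NRCWE-001 and 1.95, 2.23, 1.63, 2.13 and 1.94 at 162 µg NRCWE-002. Both groups overlapped the vehicle in this list. Monocyte markers (5 of 5) were 1.64 to 1.94 in the vehicle, 1.87 to 2.40 with NRCWE-001 and 2.00 to 2.26 with NRCWE-002. Interstitial macrophage markers were 0.98 to 1.23, 1.01 to 1.48 and 1.27 to 1.66. In these and the monocyte markers, the NRCWE-002 mice lay above every vehicle mouse. General macrophage markers (5 of 6) averaged 1.08 in the vehicle, 1.04 with NRCWE-001 and 1.03 with NRCWE-002. In the same order, T cell markers (5 of 5) averaged 0.57, 0.50 and 0.60, and B cell markers (4 of 4) 0.66, 0.45 and 0.62. Replicate 5 was the lowest mouse for Cd63 and Ctsk in both groups, and the lowest for neutrophil markers with NRCWE-001 but not with NRCWE-002. Their part in the day 1 values was not tested.

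The wider lysosome and lipid pathway was followed in 81 measured genes of a list of 84 that are not members. In the dose test of NRCWE-001 on day 28, Gla (alpha-galactosidase, an enzyme of glycolipid breakdown) passed at an adjusted p of 0.0288, where 0.476% of all genes passed. At 162 µg it was higher than the vehicle by 0.64 ± 0.16 (SE), with 4 of 5 mice above every vehicle mouse. The call was lost with median centring (adjusted p = 0.110), with only the day 28 arrays (0.538), without slides 4 and 6 (0.0745) and without vehicle replicate 1 (0.0509) or replicate 1, 4 or 5 of 162 µg NRCWE-001 (0.160, 0.313 and 0.304). On day 1, Abcg1, a cholesterol exporter abundant in alveolar macrophages, was the 1 gene of 81 called at 162 µg NRCWE-001. That limma contrast called 0.578% of all genes. Abcg1 fell by 0.89 ± 0.21 on the log2 scale (adjusted p = 0.0244), with all 5 exposed mice below all vehicle mice. The share of all genes that lay fully below the vehicle is not given here. For NRCWE-002 the Abcg1 difference was -0.79 ± 0.21 (adjusted p = 0.0608).

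Beside Abcg1, the mean of 8 of 9 alveolar macrophage markers on day 1 was 3.09 to 3.57 in the vehicle, 2.57 to 3.20 at 162 µg NRCWE-001 and 2.93 to 3.60 at 162 µg NRCWE-002, the last spanning the vehicle range. Of the 8, Siglecf (-0.92) and Ear1 (-1.30) were called by limma at 162 µg NRCWE-001 (adjusted p = 0.0498 for both), where 0.578% of all genes were called. Chil3, Krt79 and Pparg were lower without a call, and Marco, Car4 and Fabp4 were higher. The part of these markers was not tested. The other limma comparisons of a dose with the vehicle called 0 of the 81. At 18 and 54 µg, 1 to 10 of the 81 had an unadjusted limma p below 0.05, beside 512 to 1440 of all 17639 genes. Median changes of the list at 162 µg were 0.02 and 0.02 on day 1 and 0.04 and -0.002 on day 28. The call of Abcg1 was lost when any 1 of 7 of the 10 compared arrays was left out (adjusted p up to 0.304). It was also lost in limma with median centring (-0.76, adjusted p = 0.232) and with the scanner's processed signals (-0.92, adjusted p = 0.0585).

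The particles were compared directly because they differ in surface charge. No member differed between NRCWE-002 and NRCWE-001, either as a mean over the 3 doses, where 0.125% of all genes passed on day 1 and 4.75% on day 28, or at 162 µg, where 0% passed on each day. At an unadjusted p below 0.05 the limma counts were 2 and 0 members for the mean over doses and 0 and 2 members at 162 µg, on day 1 and day 28. For Gpnmb at 162 µg on day 28 the difference was -0.42, with a 95% interval of -1.38 to 0.53, and for Ctss it was -0.55, with an interval of -1.14 to 0.05. For Cd63 on day 1 it was 0.005, with an interval of -0.33 to 0.34. These intervals leave room for differences as large as their bounds. With median centring of the arrays in place of loess, 11 members were called for the mean over doses on day 28. The share of all genes under that setting is not given here, so the count is not a result about the members in particular. Of the pathway genes, Galc and Atp6v1c1 were lower with NRCWE-002 on day 28 by the mean over doses, and with slide as a fixed block neither was called (adjusted p = 0.996 and 0.993).

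The change at 162 µg was also compared between the days, as day 28 minus day 1. The limma contrast called 0 members and 0% of all genes for each particle, with 4 and 2 members at an unadjusted p below 0.05. Its largest member value for NRCWE-001 was 1.49 ± 0.70 (SE) for Gpnmb, followed by Ctss at 1.47 ± 0.44 (adjusted p = 0.887). Unadjusted 95% intervals are given for the 4 genes called by the dose test of NRCWE-001 on day 28, which were picked for that call. For NRCWE-001 they were 0.10 to 2.89 for Gpnmb, 0.37 to 2.43 for Trem2 and 0.60 to 2.34 for Ctss, above 0. For Spp1 the interval was -0.04 to 2.54, which spans 0. For NRCWE-002 they were -0.14 to 2.65, 0.14 to 2.20, -0.03 to 1.71 and -0.55 to 2.03 in the same order. Only that of Trem2 lay above 0 for NRCWE-002. None of the 4 genes passed after adjustment over all genes. Vehicle mice of day 28 and day 1 were compared as a background, and limma called 0 members and 0% of all genes, with 0 members at an unadjusted p below 0.05.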

How the data were processed

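Scanner output of 69 two-colour arrays was used. The authors deposited spot intensities from Agilent Feature Extraction 11.0.1.1 and, per the series table, log2 ratios of lung (Cy5) to reference RNA (Cy3) that were already normalised. Starting from the intensity values, limma 3.58.1 (R 4.3.3) was used to correct background by normexp (offset 50, fitted without spots whose local background lay over 10 MADs out). Ratios were then normalised by loess within arrays, and repeat spots were summarised by their median. A probe was kept when its Cy5 signal was well above background on at least 4 arrays. Probes were named through the transcript accession, which matched 27479 of 41174 probes, and a gene's value was the median over its kept probes (17639 genes). The resulting values correlated with the deposited log2 ratios at 0.987 to 0.995 per array. The deposited medians lay between -0.0586 and -0.00264, so that table is centred near 0.

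Groups were taken from the labels. One model of all 69 arrays with 14 group means gave moderated F-tests over the 3 doses of a particle on a day and single contrasts, adjusted by Benjamini-Hochberg over all genes and called at an adjusted p under 0.05. An SE is that of the fitted difference and rests on 1 spread per gene, shared by all 14 groups. It understates the spread of groups whose mice vary more, as for Gpnmb, Trem2, Spp1 and Ctss at 162 µg NRCWE-001 on day 28. The labels do not say whether mice shared a litter or a treatment batch. Arrays did share slides and scan days, unevenly over the groups. The p-values of the main model therefore mix such effects with the spread between these mice. The number of arrays limits the precision, and between 61.4% and 87.8% of spots were well above background. Named in full are members called in any test and, for each particle and day, the 3 members with the largest change at 162 µg; pathway genes are named when called, except 1 result that is not reported here. Members, pathway genes, marker lists and tests were chosen with earlier results of these data known. Alternatives covered background, scaling, probe filter and summary, slide (18) or scan day (12) as a block, array weights, variance model, samples in the fit and each array left out. The scripts were tested on simulated data. Protein features of the cathepsins were not analysed here.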

Additional observations from a re-analysis of the deposited data

Results flagged for a closer look

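In 98 sets of mice of 1 group, over 6 named members and the member score, the mouse farthest from the rest was examined, and 6 sets had a mouse standing apart by Dixon's criterion. Chance alone gives about 5% of sets, so a number of this size carries little weight.

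Gpnmb was highest in vehicle replicate 2 of day 28, at -3.07 against -4.06 to -3.91 in the other vehicle mice, and Cd63 was highest in the same mouse, at -0.46 against -1.03 to -0.98. That array is on slide 6. Gpnmb was lowest in replicate 5 of 162 µg NRCWE-001 on day 1, at -3.70 against -3.24 to -3.06. Ctss was lowest in vehicle replicate 5 of day 1, at 1.23 against 1.86 to 2.01. In replicate 5 of 18 µg NRCWE-002 on day 1, Ctss was lowest at 0.83 against 1.88 to 2.19, and the member score was lowest at 0.066 against 0.271 to 0.310.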

How the results depend on the processing

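The 4 dose calls of NRCWE-001 on day 28 kept their direction under every alternative run, but the number of members called did not stay at 4. Shares of all genes are given only for the main fit and for slide as a fixed block, so the other counts are descriptions. For counts at an unadjusted p, all genes are given only for single doses against the vehicle, and the rest are descriptions too. Median centring ended the call of Gpnmb (adjusted p = 0.0606) and left 3. The count was 7 with slide and 7 with scan day as a fixed block, 9 with slide as a random block, 15 with array weights, and 0 with only the arrays of day 28 or without the arrays of slides 4 and 6. The dose test of NRCWE-002 on day 28 called 1 member with slide as a random block. On day 1 the dose test of NRCWE-001 called 3 with slide or scan day as a fixed block, 2 with slide as a random block, 6 with array weights and 1 without slides 4 and 6. That of NRCWE-002 called 2 with slide or scan day as a fixed block, 7 with array weights, and 0 with median centring, no filter on dim probes, a trended robust variance or an ordinary F. At 162 µg NRCWE-001 on day 28, 1 member was called without background correction and with the stricter filter, 2 without slide 4 and 11 with array weights. At 162 µg on day 1 the counts for NRCWE-001 and NRCWE-002 were 1 and 1 with slide or scan day fixed, 2 and 1 with slide random or without slides 4 and 6, and 3 and 4 with array weights. Median centring called 11 members between the particles over all doses on day 28, and gave day 1 score differences of 0.212 and 0.255 and member medians of 0.157 and 0.138. Array weights called 1 member between the particles on day 1 and 6 between the days for NRCWE-001. Leaving out 1 array gave 0 to 1 members for both day 1 dose tests, 0 to 6 for the day 28 dose test of NRCWE-001, 0 to 2 and 0 to 1 at 162 µg on day 1, and 0 to 5 and 0 to 2 at 162 µg on day 28. Atp6v1c1 changed sign between the particles on day 28, to 0.0151 with slide and 0.0189 with scan day as a block. The cause of these shifts was not tested. The step that normalised intensities between arrays acts on mean intensities only. It leaves every ratio as it was by design and is no check of these results. Leaving out slides was chosen after seeing the data, as were the differences within slides that include lower doses. No paired analysis was possible because the labels give no replicate numbers shared between groups.

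Limits are the 4 or 5 mice a group, the single kept probe behind 22 members, the lack of a dye swap, and whole lung as the tissue.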
